A study of Mus musculus with 5 samples.

Results

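Chemically induced neural progenitor cells (ciNPC) were compared between passage 13 (p13) and passage 5 (p5), to ask how their expression differed after further passaging. The comparison used 3 of the 5 mouse samples of the study: 2 arrays labelled p13 and 1 labelled p5, chosen by their titles and hybridised on 1 slide (slide 2, scan 2). Mouse embryonic fibroblasts (MEF) and brain-derived neural progenitor cells as control (NPC) had 1 array each on another slide (slide 1, scan 1). The labels name no genotype, strain, animal age or transgene for any group; the ciNPC are described as made with chemical cocktails under hypoxia. The labels give neither the oxygen level nor the compounds present at p5 or at p13. Whether separate cultures or lines gave rise to the p13 arrays is also not stated, so the p-values reflect no more than how these samples spread, and that spread may be technical.

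Neural progenitor cells divide in culture and can give rise to neurons, astrocytes and oligodendrocytes. They are held in that state by transcription factors such as Sox2 and by Notch signalling, which drives Hes genes. Cells in low oxygen stabilise hypoxia-inducible factor (HIF), which binds short DNA elements and raises genes of glycolysis, lactate export and mitophagy. Shortage of amino acids or unfolded protein acts through another factor, ATF4, on genes of amino acid uptake and synthesis.

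Levels are log2 of the processed Cy3 intensity of a 60-base probe minus the 75th percentile of its array, so 0 is the array's 75th percentile and 1 unit is 2-fold. Of 21983 genes with a probe, 16210 were tested, and 12700 of these exceeded background clearly on each of the 3 ciNPC arrays. The share of spots well above background was 49.1% on p5, 47.9% on p13 replicate 1 and 54.1% on p13 replicate 2. Negative controls had a mean net signal of 81.1 on p5 and of 81.6 and 102 on the p13 arrays, and the spike-in slope of p13 replicate 2, 0.803, was marked as out of range by the extraction software. The lowest signal well above background (the floor) was correspondingly -3.52, -3.23 and -2.79. With so few arrays, precision is limited by their number. Of the 10 neural progenitor markers, 10 were above background on each ciNPC array, and of the 10 fibroblast markers, 10 were as well. The summed linear level of these fibroblast markers, in multiples of the 75th percentile, was 1648 in MEF, 231 at p5, 184 and 168 at p13 and 3.08 in NPC. That of the progenitor markers was 18.56 in MEF, 337.7 at p5, 430 and 380.7 at p13 and 500.5 in NPC. By these sums the ciNPC lay between MEF and NPC for both sets at both passages. Readings above background alone do not separate the types. In MEF 5 of 10 progenitor markers were above background, as were 5 of 10 fibroblast markers in NPC. Each other type checked, with 5 markers each, also had some above background on each ciNPC array. These types were neuron, astrocyte, oligodendrocyte, macrophage, endothelial, muscle and epithelial. Endothelial markers above background numbered 1 at p5 and 2 on each p13 array.

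A pair of readings was used. A shared change was a gene at least 2-fold from p5 on both p13 arrays, on the same side, with the smaller of these steps larger than the gap between the p13 arrays. It carries no test, because 2 arrays against 1 cannot give an exact two-sided permutation p below 0.333. A gene passed, and is said to have risen or fallen, at a limma adjusted p under 0.05 (Benjamini-Hochberg over all genes) and a difference of at least 2-fold. That fit takes its spread from the p13 pair alone, with 1 residual degree of freedom, and assumes that the lone p5 array varies alike.

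Few genes showed a shared change between the passages: 196 genes (1.21%), 96 higher (0.592%) and 100 lower (0.617%) at p13. Over all genes tested the signed median difference, p13 minus p5, was 0.01. Each array was scaled by its own percentile, which limits this median, so it does not measure how far genes moved. The median absolute difference from p5 was 0.24 for p13 replicate 1 and 0.29 for p13 replicate 2, against 0.15 between the p13 arrays. The p13 arrays lay at least 2-fold apart for 608 genes (3.75%), by a rule that asks for 1 step rather than 2. Of these 608 genes, 514 were higher on replicate 2, the array with the higher background, and 185 were above background on all 3 ciNPC arrays. Taken alone, replicate 1 gave 261 genes above and 184 below p5, and replicate 2 gave 913 above and 165 below. The smaller step of the shared genes nearest the limit was 1.0057 (higher) and -1.0015 (lower), and that of the nearest genes outside it was 0.9975 and -0.9970.

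**Figure D1:**
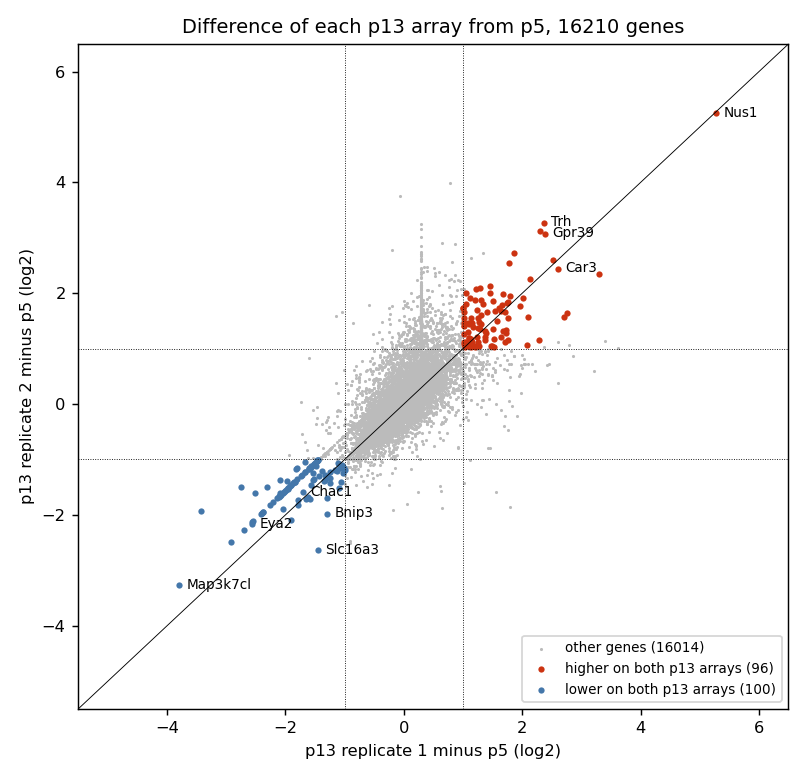
Log2 difference of p13 replicate 1 (x axis) and of p13 replicate 2 (y axis) from p5 for 16210 genes, with values under background raised to the floor of their array; dotted lines mark 2-fold and the diagonal marks equal differences. The 96 red and 100 blue points are the shared changes; Nus1 stands alone at the top right, and the vertical streak of grey points holds genes under background at p5 and on replicate 1 but not on replicate 2.

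The fit passed 99 genes (0.611%), 65 higher (0.401%) and 34 lower (0.21%) at p13. Of these 99, 69 also showed a shared change, 42 higher and 27 lower, which is 69.7% of the genes that passed and 35.2% of the genes with a shared change. The calls rest on how limma pools the spread: without an intensity trend limma passed 0 genes. Quantile normalisation or the deposited value table left 2, Car3 and Nus1. At an unadjusted p under 0.05 the reported fit held 3625 genes. Of the 99 genes, 66 passed the same way under the other percentile scaling, cyclic loess and normexp, and 96 kept their sign under every alternative and without either p13 array. Among the genes named below as having risen or fallen, those that did not pass under all of these 3 scalings were Pdk1, Vegfa, Atf3, Lgr5, Pycr1, Mlc1, Nanog and Wnt7a. By scaling, the share of higher calls among the genes that passed was 65.7% as reported and 40.5% under cyclic loess, and among shared changes 49.0% as reported, 23.5% under quantile normalisation, 19.8% under cyclic loess and 21.7% in the deposited value table.

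Bnip3, Pdk1 and Vegfa of the hypoxia response list fell, and most of its other members lay below 0. The list held 40 genes, of which 39 were tested. Of these 3 fell and 0 rose, beside 0.21% and 0.401% of all genes. Among 36 members above background on all 3 arrays, 30 lay below 0. The median over the tested members was -0.22 against 0.01 over all genes tested. Slc16a3, which exports lactate from the cell, was not in the list but was the second-largest fall among genes above background on all 5 arrays.

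Slc16a3 measured 3.23 at p5, 1.78 and 0.60 on the p13 arrays, 5.71 in MEF and 0.65 in NPC. Both p13 arrays were below p5, by more than the gap between them, and replicate 2 lay near NPC. The gene fell by 2.05 ± 0.33 (SE) to 24.2% of its p5 level (limma adjusted p = 0.00922), and its other probe differed by -1.98. Bnip3, a receptor for mitophagy, measured 3.74 at p5, 2.45 and 1.76 at p13, 4.71 in MEF and 1.85 in NPC. It fell by 1.64 ± 0.21 (SE; limma adjusted p = 0.00377), and its other probes differed by -2.17 and -1.76. For both genes p5 lay between MEF and p13.

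Pdk1, the kinase that holds pyruvate dehydrogenase off, measured -0.59 at p5 and -1.87 and -1.90 at p13, with 0.20 in MEF and -1.68 in NPC. It fell by 1.30 ± 0.26 (SE; limma adjusted p = 0.0199). Vegfa, the vascular growth factor, measured 2.35 at p5, 1.44 and 1.21 at p13 and 3.77 in MEF, with NPC slightly above the p13 arrays. It fell by 1.03 ± 0.12 (SE; limma adjusted p = 0.00291), although replicate 1 was under 2-fold from p5 and another probe differed by only -0.39. Mgarp, a mitochondrial protein not in the list, measured 0.66 at p5, -1.24 and -1.44 at p13, 0.39 in MEF and -1.15 in NPC. It fell by 2.00 ± 0.21 (SE; limma adjusted p = 0.00167), the p13 arrays lying together and near NPC.

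Other members of the list did not move as far. Car12, a carbonic anhydrase, measured -0.65 at p5 and -1.59 and -1.69 at p13, a difference of -0.99 that did not pass (limma adjusted p = 0.0758). Hk2, Slc2a1 and P4ha1, of glucose use and collagen hydroxylation, differed by -0.59, -0.58 and -0.57. Ldha, Pgk1 and Ddit4 differed by -0.13, -0.29 and -0.01, and Adm by 0.32. Of the 39 members 8 lay above 0, the highest being Egln1, an oxygen-sensing hydroxylase, at 0.78, Hk1 at 0.63 and Ndufa4l2, which was not above background on all 3 arrays, at 1.23; none of these passed. The list's downward shift was thus broad, with 31 of 39 members below 0, but uneven in size. Its median stayed below 0 under every scaling (from -0.24 to -0.17).

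Promoter stretches of 3 genes that fell are shown to let their letters be compared. Only stretches that hold the motif are shown, and Slc16a3 and Mgarp are not in the hypoxia list. Sequences are RefSeq's on GRCm38.p6, 5′ to 3′ on the strand of the gene, and capitals mark a motif. ACGTG, the core of the hypoxia response element, was searched on both strands in the 250 bases before each gene's start. CACGTG reads as ACGTG on both strands, so 1 stretch can count on both. The stretches for 3 genes follow, for Bnip3 at chr7:138909562-138909661 (minus strand), for Slc16a3 at chr11:120948967-120949066 (plus strand) and for Mgarp at chr3:51396698-51396797 (minus strand).
Bnip3: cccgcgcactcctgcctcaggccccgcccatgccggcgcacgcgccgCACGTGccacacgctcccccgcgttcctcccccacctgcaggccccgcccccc
Slc16a3: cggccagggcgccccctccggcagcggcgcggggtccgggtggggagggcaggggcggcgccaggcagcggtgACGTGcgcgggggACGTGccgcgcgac
Mgarp: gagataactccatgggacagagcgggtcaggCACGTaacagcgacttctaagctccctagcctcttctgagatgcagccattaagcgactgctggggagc

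Bnip3 held the motif on both strands at 108 to 103 bases before its start, Slc16a3 held 2 copies on the gene's strand within the last 27 bases, and Mgarp held 1 on the other strand. ACGTG is a common string: 16.6% of 32851 promoters and 23.2% of the 12642 promoters of tested genes held it. Of the genes that fell and had a promoter, 8 of 28 held it, of those that rose 10 of 51, and of the hypoxia list 18 of 33. Of the 3 hypoxia list genes that fell, Bnip3 and Vegfa held it and Pdk1 did not. The other core form, GCGTG, stood in 45.5% of promoters of tested genes, in 16 of 28 of those that fell and in 26 of 51 of those that rose. TGACGTCA, the cAMP response element, stood in 1 of 28 and 2 of 51, beside 2.81% for tested genes. TGANTCA, the AP-1 site, stood in 1 of 28 and 4 of 51, beside 6.11%. A match describes the letters and is no evidence of binding, and no role of these motifs in the falls was tested.

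**Figure D2:**
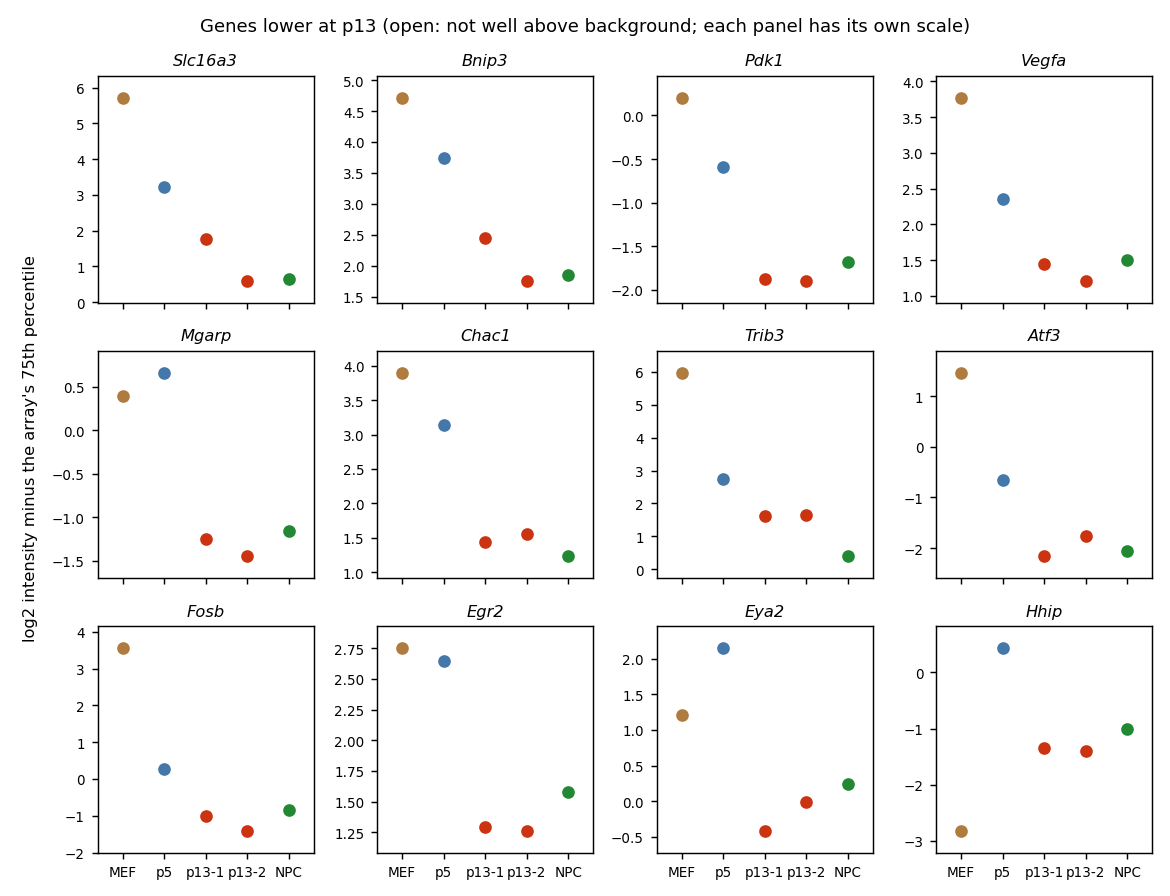
Level of 12 genes that fell, on each of the 5 arrays (log2 intensity minus the array's 75th percentile; 1 point per array, no error bars; each panel has its own scale). On every panel both p13 points (red) lie below the p5 point (blue), and for Slc16a3, Bnip3, Mgarp and Chac1 they lie nearer to NPC (green) than p5 does.

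Genes of the unfolded protein and amino acid stress response lay below 0, and Chac1 and Trib3 fell. Of 23 members tested, all above background on the 3 arrays, 2 fell and 0 rose, beside 0.21% and 0.401% of all genes. In all 21 lay below 0, with a list median of -0.45 (-0.47 to -0.40 over the other scalings). Chac1, which degrades glutathione, measured 3.15 at p5, 1.44 and 1.56 at p13, 3.89 in MEF and 1.24 in NPC. The p13 arrays lay within 0.12 of each other, far less than their distance from p5. Chac1 fell by 1.64 ± 0.11 (SE) to 32.0% of its p5 level (limma adjusted p = 6.39e-05). Trib3, a pseudokinase induced by ATF4, measured 2.73 at p5, 1.62 and 1.66 at p13, 5.96 in MEF and 0.41 in NPC, and fell by 1.09 ± 0.10 (SE; limma adjusted p = 0.000955).

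Asns, which makes asparagine, measured 6.49 at p5 and 5.75 and 5.72 at p13, a difference of -0.76 whose limma adjusted p was 0.00377 but which did not reach 2-fold. Slc7a5, an amino acid carrier, differed by -0.78 (limma adjusted p = 0.00519) and Atf4 itself by -0.53 (limma adjusted p = 0.0214). Hspa5, the chaperone of the unfolded protein response, differed by -0.24, Ddit3 by -0.42 and Psat1, of serine synthesis, by 0.02. Outside the list, Slc7a3, a carrier of basic amino acids, fell by 1.22 and Pycr1, of proline synthesis, by 1.14; both were chosen after their values were seen, and the mean over all probes of Pycr1 gave 0.24.

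The element bound by C/EBP and ATF factors, TGATGNAA with N for any base, was searched in the same way. It stood in 3.45% of all promoters and in 2.63% of promoters of tested genes. Of the genes that fell 3 of 28 promoters held it (Chac1, Atf3 and Pycr1), and of those that rose 2 of 51. These 3 stretches are printed as the matches among the genes that fell, with the motif or its reverse complement in capitals. They lie at chr2:119351003-119351102 (plus strand, Chac1), chr1:191183390-191183489 (minus strand, Atf3) and chr11:120643798-120643897 (minus strand, Pycr1).
Chac1: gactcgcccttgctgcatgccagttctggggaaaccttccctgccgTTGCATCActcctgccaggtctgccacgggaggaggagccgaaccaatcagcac
Atf3: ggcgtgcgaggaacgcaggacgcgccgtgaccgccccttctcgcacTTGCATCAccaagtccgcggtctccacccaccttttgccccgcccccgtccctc
Pycr1: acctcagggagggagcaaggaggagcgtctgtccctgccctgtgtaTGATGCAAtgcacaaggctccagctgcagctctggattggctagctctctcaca

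All 3 stretches held TGATGCAA, in Chac1 and Atf3 on the strand opposite to the gene and in Pycr1 on the gene's own strand. The Trib3 window held no match, and 20 promoters of the stress list held 4.

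Of the immediate early genes, which answer growth factors and stress within minutes, 19 were tested. Of these 3 fell and 0 rose, beside 0.21% and 0.401% of all genes, and the median was -0.15. Fosb, an AP-1 subunit, measured 0.28 at p5, -1.01 and -1.41 at p13, 3.55 in MEF and -0.84 in NPC, and fell by 1.49 ± 0.20 (SE; limma adjusted p = 0.00423). Egr2, a zinc finger factor, measured 2.65 at p5, 1.29 and 1.26 at p13, 2.75 in MEF and 1.58 in NPC, and fell by 1.37 ± 0.11 (SE; limma adjusted p = 0.000285). Atf3, a stress-induced repressor, measured -0.66 at p5, -2.15 and -1.77 at p13, 1.45 in MEF and -2.06 in NPC, and fell by 1.30 ± 0.27 (SE; limma adjusted p = 0.0216). The p5 value of each lay above both p13 arrays and NPC. The best known members did not follow: Fos differed by -0.01 and Egr1 by -0.08, and Junb measured -3.07 at p5 and -2.05 and -1.98 at p13, a shared change upwards that did not pass (limma adjusted p = 0.160).

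Several other regulators fell without belonging to these lists. Eya2, a transcriptional coactivator with phosphatase activity, measured 2.15 at p5, -0.42 and -0.02 at p13, 1.21 in MEF and 0.24 in NPC. It had the largest fall among genes above background on all 3 ciNPC arrays, 2.36 ± 0.18 (SE) or to 19.4% of p5 (limma adjusted p = 0.000204). Hhip, which binds and withholds Hedgehog ligands, measured 0.43 at p5 and -1.35 and -1.39 at p13, and fell by 1.80 ± 0.27 (SE; limma adjusted p = 0.00751). It was the 1 member of 15 tested Hedgehog genes that passed; Ptch1, the receptor and a target of the pathway, differed by 0.67 (limma adjusted p = 0.101). Pcbd1, which recycles the cofactor tetrahydrobiopterin, fell by 1.75 and the zinc finger gene Zfp536 by 1.65, the latter with -1.64 on another probe. Lgr5, the R-spondin receptor, fell by 1.08 and was the 1 of 21 tested Wnt genes that passed. Over all genes tested 0.611% passed.

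The steepest falls came from genes that were dim at p13, where only a bound can be given. Cyp27b1, which activates vitamin D, measured -0.31 at p5 and was not well above background on any other array, so it was at least 6.52-fold lower at p13. It entered the test only through p5, the array where it was high, so its p-value is no support and is not given. Map3k7cl was at least 11.6-fold lower (0.57 at p5, -1.06 in MEF, under background at p13) and Fam199x at least 5.62-fold lower. Of the 100 genes with a shared change downwards, 51 were under background on both p13 arrays and 36 were above background on the p5 array only, of all 5 arrays. With 1 p5 array, these 36 readings have no replicate. Among the 34 genes that fell, 29 were above background on all 3 ciNPC arrays, and for all 7 of those with another bright probe that probe lay on the same side.

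The genes that rose included many that NPC express more than MEF. Of the 65, 29 (44.6%) had an NPC level 4-fold or more above that of MEF and 3 (4.62%) the reverse, where 8.01% and 10.1% of all genes tested fell into these classes. Of the 34 genes that fell, 3 (8.82%) and 14 (41.2%) did. Among shared changes the split was weaker. Of the 96 higher genes, 34 (35.4%) and 6 (6.25%) were in these classes, and of the 100 lower genes 9 (9.0%) and 16 (16.0%). Car3, carbonic anhydrase III, measured 1.98 at p5, 4.58 and 4.42 at p13, -3.74 in MEF and 4.80 in NPC. Both p13 arrays stood far above p5 and close to NPC. Car3 rose by 2.52 ± 0.11 (SE), 5.75-fold (limma adjusted p = 1.26e-06), and kept its call under quantile normalisation and in the deposited value table.

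Trh, the precursor of thyrotropin-releasing hormone, was under background at p5 and measured -1.15 and -0.24 at p13, -4.15 in MEF and -0.21 in NPC. It was at least 7.08-fold higher at p13 (limma adjusted p = 0.00221). Camk2a, a kinase of synapses, was under background at p5, measured -1.50 and -1.61 at p13 and was at least 3.90-fold higher there (limma adjusted p = 0.0181). Unlike Car3 and Trh, Camk2a was among the genes under 4-fold between NPC and MEF. For Trh, Camk2a and, below, Cxcr4 the limma fit used p5 readings not raised to the floor. Their adjusted p therefore does not test the "at least" fold printed beside it.

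Neural progenitor genes lay mostly above 0. Of 47, all above background on the 3 arrays, 34 lay above 0 and 13 below, and the median was 0.19 (0.15 to 0.23 over the other scalings) against 0.01 over all genes. In this list 1 gene rose and 0 fell, beside 0.401% and 0.21% of all genes. The gene that rose was Hes5, an effector of Notch, with -0.21 at p5, 1.00 and 0.83 at p13 and 1.55 in NPC, and not above background in MEF. It rose by 1.12 ± 0.20 (SE), 2.18-fold (limma adjusted p = 0.0124), and the p13 arrays lay between p5 and NPC. Sox2 measured 1.80 at p5, 2.11 and 2.10 at p13 and 2.70 in NPC, Nes 6.13, 6.26, 6.21 and 6.62, and Olig2 3.33, 3.55, 3.52 and 4.25. Differences for Sox2, Nes, Olig2, Fabp7 and Pax6 were 0.31, 0.11, 0.21, 0.26 and -0.12, and none passed (limma adjusted p from 0.205 for Fabp7 to 0.914 for Pax6).

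Of the 15 Notch genes tested, Hes5 was the 1 that passed; 12 of 13 bright members lay above 0, and the median was 0.26 (0.15 to 0.31 over the other scalings) but 0.06 without p13 replicate 1. The receptor Notch3 differed by 0.50 (limma adjusted p = 0.0269, under 2-fold) and the ligand Dll1 by 0.59 (limma adjusted p = 0.328). Hopx, a marker of radial glia, went the other way, with 1.52 at p5 and 0.48 and 0.59 at p13, a difference of -0.98 (limma adjusted p = 0.00955) just short of 2-fold.

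En2 and Mlc1 were the members of the regional and astrocyte lists that rose. En2, the homeobox gene of the midbrain-hindbrain boundary, measured 0.21 at p5, 1.36 and 1.32 at p13, -2.74 in MEF and 1.61 in NPC, and rose by 1.13 ± 0.16 (SE; limma adjusted p = 0.00507). Mlc1, an astrocyte membrane protein, measured 3.59 at p5, 4.91 and 4.32 at p13 and 4.84 in NPC, and rose by 1.02 ± 0.18 (SE; limma adjusted p = 0.0132), with replicate 2 under 2-fold from p5. Cdh13, an atypical cadherin, measured 2.10 at p5, 3.35 and 3.10 at p13 and 3.37 in NPC, and rose by 1.12 ± 0.12 (SE; limma adjusted p = 0.00167). For En2, Mlc1 and Cdh13, p13 lay close to NPC. The axon guidance and adhesion list had 36 members tested, of which Cdh13 rose and 0 fell, beside 0.401% and 0.21% of all genes. In that list 24 members lay below 0 and the median was -0.21. Of 16 tested midbrain and hindbrain genes, En2 rose and Egr2 fell, beside 0.401% and 0.21% of all genes. Of the 9 bright members 4 lay above 0 and 5 below. Those below included the Iroquois homeobox genes Irx3 (-0.84) and Irx1 (-0.57). The list's median was 0.23, and -0.12 without p13 replicate 2. The forebrain genes Otx2 and Six3 differed by 0.95 and 1.03 and did not pass (limma adjusted p = 0.0399, under 2-fold, and 0.0682).

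A further set with the same pattern was chosen after the values were seen. Cbs, which makes cystathionine from homocysteine, rose by 1.46, Slc25a18, a mitochondrial glutamate carrier, by 1.32, Atp1b2, a beta subunit of the sodium pump, by 1.27, and Cntfr, the receptor of ciliary neurotrophic factor, by 1.14. Rorb, a nuclear receptor, rose by 1.28, Wnt7a, a Wnt ligand, by 1.16, and Mir9-3hg, the host transcript of a miR-9 gene, by 1.40. All 7 belonged to the genes with 4-fold or more in NPC over MEF. Gfap, the classical marker of astrocytes, was under background at p5 and measured -2.52 and -1.92 at p13, and did not pass (limma adjusted p = 0.200). Of 18 astrocyte genes 1 rose, Mlc1, beside 0.401% of all genes, and 10 lay above 0. The list's median, 0.09, turned to -0.21 under another scaling and to -0.13 without p13 replicate 1.

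**Figure D3:**
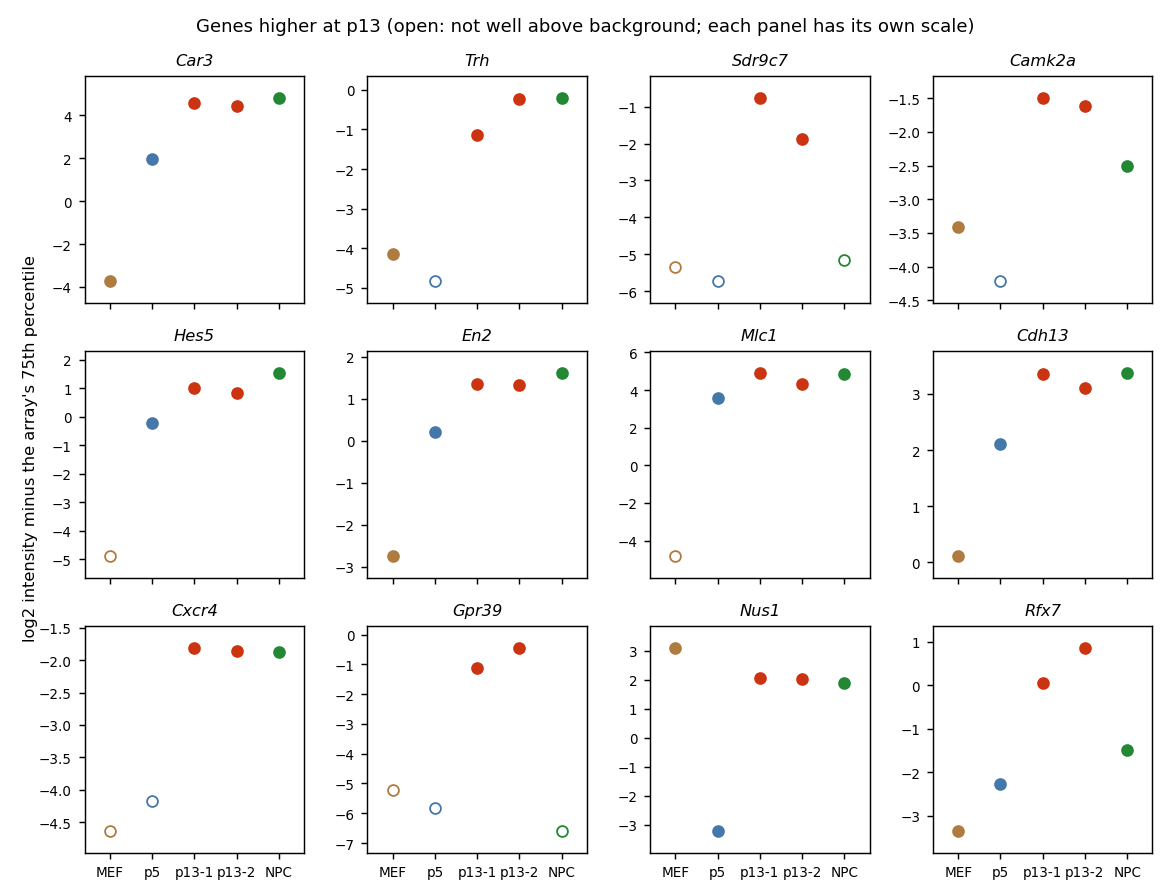
Level of 12 genes that rose, on each of the 5 arrays (log2 intensity minus the array's 75th percentile; filled points well above background, open points not; 1 point per array, no error bars; each panel has its own scale). The p13 points (red) of Car3, Hes5, En2, Mlc1 and Cdh13 lie between or near p5 (blue) and NPC (green), whereas Gpr39 and Rfx7 are highest at p13.

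Some genes that rose stood above their NPC level at p13. Gpr39, a zinc-sensing receptor, was above background on the p13 arrays alone (-1.13 and -0.44) and was at least 6.66-fold higher there. Sdr9c7, a dehydrogenase known from skin, measured -0.77 and -1.87 at p13 and was likewise above background on the p13 arrays alone. Both entered the test only through the passage where they were high, so their p-values are no support and are not given. Rfx7, a transcription factor, measured -2.26 at p5, 0.04 and 0.86 at p13, -3.35 in MEF and -1.49 in NPC, and rose by 2.72 ± 0.35 (SE; limma adjusted p = 0.00377), but its other probe differed by 0.42. Cxcr4, the chemokine receptor of migrating progenitors, by contrast matched NPC: it was under background at p5 and measured -1.81 and -1.86 at p13 and -1.87 in NPC, at least 3.21-fold higher (limma adjusted p = 0.0407). Of the 96 genes with a shared change upwards, 47 were under background at p5 and 7 were above background on the p13 arrays only. Among the 65 genes that rose, 46 were above background on all 3 ciNPC arrays. At p5 19 were under background, and 1 was under background on both p13 arrays.

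Nus1, a subunit of the cis-prenyltransferase that makes dolichol, gave the largest difference of all bright genes. It measured -3.21 at p5 and 2.07 and 2.04 at p13, and also 3.11 in MEF and 1.88 in NPC, so the p5 array alone was low. The probe rose by 5.27 ± 0.13 (SE), 38.5-fold (limma adjusted p = 4.43e-09), and lies at chr10:52156439-52156498 of mm9. The other Nus1 probe differed by 0.37, and the mean over both gave 2.82. The 23 dolichol and prenyl genes tested, Nus1 included, had a median of -0.11. Nanog, a pluripotency factor, also passed on 1 probe (1.09 ± 0.22 SE, limma adjusted p = 0.0203) while its other probe differed by -0.93. Of the 13 genes that rose and had another bright probe, 8 had every such probe on the same side.

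Fibroblast genes were lower at p13 in small steps. Of 35 tested fibroblast genes 0 passed in either direction. With 0.611% of all genes passing, a list of this size would hold few calls or none at that share. Among the bright members 32 of 32 lay below 0, and the list's median was -0.38 (-0.44 to -0.33 over the other scalings). Col3a1, a fibrillar collagen, measured 7.78 in MEF, 3.63 at p5, 2.83 and 2.76 at p13 and -2.50 in NPC, a difference of -0.84 (limma adjusted p = 0.00281, under 2-fold). Dcn and Ogn, proteoglycans of connective tissue, differed by -0.68 and -0.86, Col1a1 by -0.29 and Thy1 by -0.32. At p13, Col1a1 still measured 5.72 and 5.60, against a reading under background in NPC.

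The TGF-beta list behaved alike: 0 of 24 passed, 22 lay below 0 and the median was -0.38 (-0.42 to -0.33). With 0.611% of all genes passing, counts of 0 in this and the following lists say little about their members. Ccn2, a matricellular target of TGF-beta, measured 6.36 at p5 and 5.46 and 5.38 at p13, a difference of -0.94 (limma adjusted p = 0.00121). Of 17 smooth muscle genes 0 passed and 13 of 15 bright members lay below 0 (median -0.28, -0.42 to -0.23). Of 28 interferon genes 0 passed and 21 of 23 bright members lay below 0 (median -0.49, -0.57 to -0.35), with Rtp4 at -0.77 and Bst2 at -0.66. Of 18 chemokine and cytokine genes Cxcr4 rose, and 10 of the 10 bright members lay below 0, with Ccl2 at -0.70. Of 35 Hox genes 0 passed; their median of -0.38 turned to 0.09 under another scaling and was -0.18 without p13 replicate 1.

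The drop of the summed fibroblast markers given above, from 231 to 184 and 168, had the direction of these lists and of the hypoxia and stress lists. The neural progenitor list moved the other way, with a median of 0.19. What part the fibroblast drop had in any of these lists was not tested. In a bulk sample, fewer cells of a type and less RNA per cell cannot be told apart. Over whole classes, 1637 genes with MEF 4-fold or more over NPC had a median of -0.30 (-0.42 to -0.15 over the other scalings), 3 of them rising and 14 falling. The 1299 genes higher in NPC had a median of 0.08 (0.03 to 0.12), 29 rising and 3 falling. The classes were set from the MEF and NPC arrays, which are not part of the difference.

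**Figure D4:**
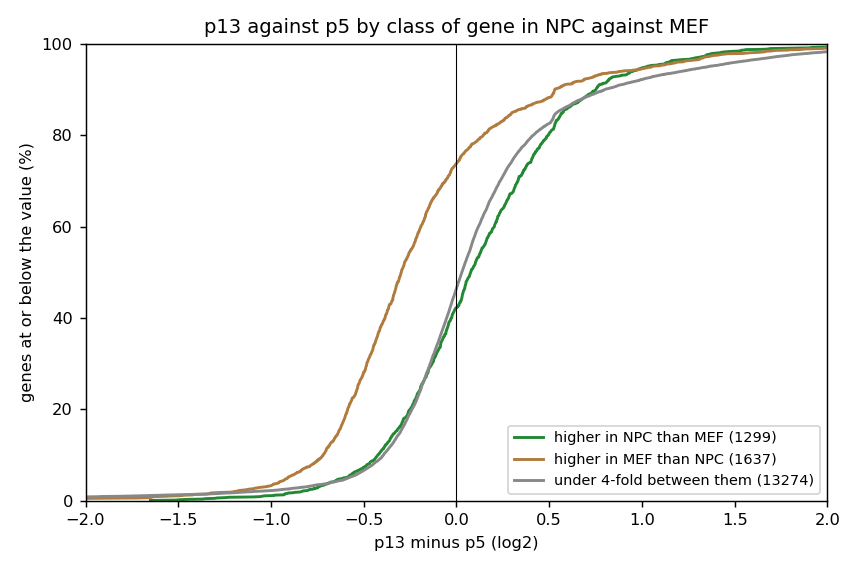
Cumulative share of genes (y axis, %) by difference p13 minus p5 (x axis, log2), for genes with NPC 4-fold or more over MEF (1299), the reverse (1637) and the rest (13274). The curve of MEF-high genes is shifted to the left (median -0.30), and that of NPC-high genes lies slightly to the right of the rest (medians 0.08 and 0.03).

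Cell cycle genes lay on both sides of 0, 14 of 32 above and 18 below, with a median of -0.04. Of these 0 passed, where 0.611% of all genes did, so a list of this size would hold few calls or none at that share. Mki67, a proliferation marker, measured 5.82 at p5 and 5.90 and 5.80 at p13. Cdkn2a, the inhibitor that accumulates in ageing cultures, measured 2.38 at p5, 2.06 and 2.28 at p13, 4.48 in MEF and 2.72 in NPC, a difference of -0.22 (limma adjusted p = 0.292). The 18 genes of inhibitors and senescence and the 20 p53 targets, again with 0 passing, had medians of 0.00 and 0.04; that of the p53 targets was -0.03 without p13 replicate 1. Cdkn2b, a related inhibitor, differed by -0.76 (limma adjusted p = 0.0113, under 2-fold).

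Metabolic lists lay slightly above 0. Of 35 genes of oxidative phosphorylation 27 lay above 0 (median 0.16, 0.07 to 0.21), with the ATP synthase subunit Atp5b at 0.37. Of 30 genes of cholesterol and fatty acid synthesis 23 did (median 0.19, 0.10 to 0.23), with Insig1, a brake on that pathway, at 0.72 (limma adjusted p = 0.0113). In both lists 0 genes passed, where 0.401% of all genes rose, which in lists of this size gives few calls or none. The 18 housekeeping genes had a median of 0.08 (-0.01 to 0.13), and 0.04 without p13 replicate 1.

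**Figure D5:**
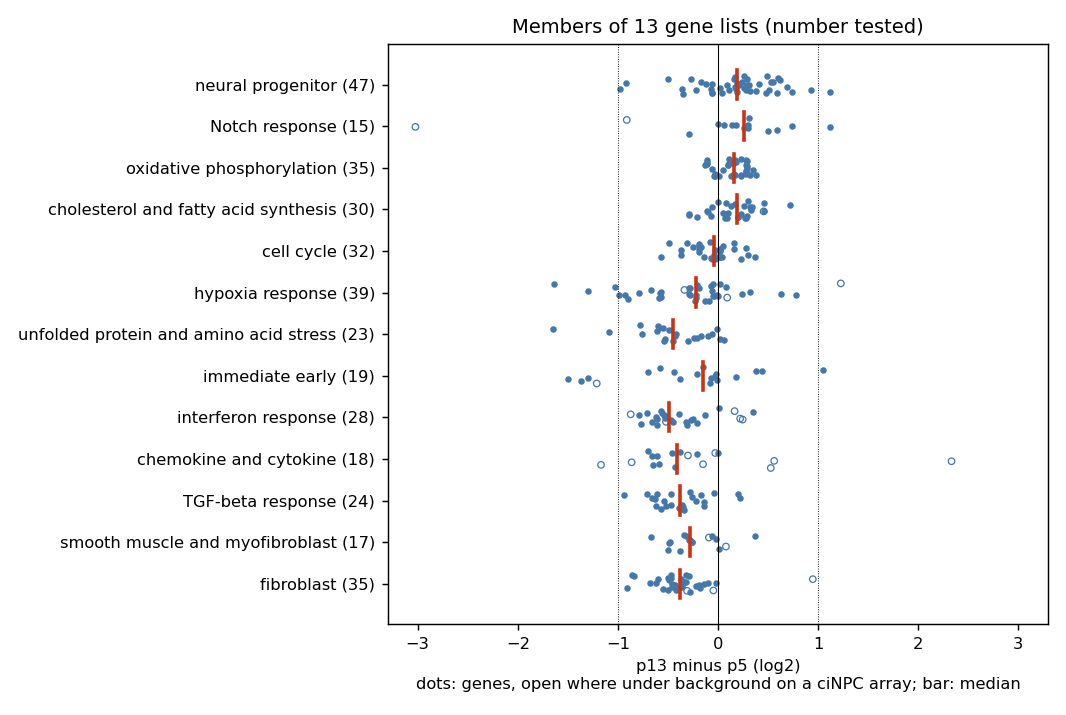
Difference p13 minus p5 (log2, x axis) of the tested members of 13 gene lists; filled dots were above background on all 3 ciNPC arrays, open dots were not, red bars are medians and dotted lines mark 2-fold. Members of the fibroblast, TGF-beta and stress lists lie almost wholly left of 0, and few dots of any list pass the 2-fold lines.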

How the data were processed

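Total RNA of 5 mouse samples was labelled with Cy3 and hybridised to 60-mer Agilent expression arrays. The authors used Agilent Feature Extraction 10.7.1.1 for spot extraction, per the submitters' processing notes and the file headers. The deposited array files give a background-subtracted intensity per spot on a linear scale, and the deposited value table gives log2 values, 1 per probe, whose scaling is not given in the sources used here; its columns correlated with the array files at 0.995 or more. Probe positions are mm9, per the file headers.

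From the intensities of non-control spots, log2 was taken and each array's 75th percentile subtracted; spots marked as outliers were dropped and spots of a probe averaged. Of 55681 probes, 29676 were named through the RefSeq gene table (GRCm38.p6, names and promoters only). A gene was represented by its brightest probe and tested if all arrays of any 1 of the 4 groups read that probe well above background. A dim value was raised to the floor of its array for shared changes and "at least" folds: the lowest signal among probes well above background. The limma fit used readings without this step. limma 3.58.1 in R 4.3.3 fitted 4 groups (lmFit, eBayes with an intensity trend, prior degrees of freedom 9.78) and was tested on simulated data. Lists were described by counts and medians.

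Named were up to 15 genes per direction that passed, 15 per direction by smaller shared step, up to 4 per list, and 13 fixed genes. Genes quoted from lists beyond these 4 were chosen after their values were seen. The members of the comparison and all lists were chosen with earlier results of these data known. Alternatives covered scaling, background correction, dim-probe filters, probes per gene, outlier spots, variance prior, arrays in the fit, minimum fold and each p13 array left out.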

Additional observations from a re-analysis of the deposited data

How the results depend on the processing

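No paired analysis was possible because p5 has 1 array and only p13 carries replicate numbers. Leaving out a p13 array left no residual degrees of freedom, so the limma counts have no such value. For ciNPC p13 against p5, the number of genes that passed (99; 65 higher, 34 lower) was 2, 2 and 0 under quantile normalisation and again with the deposited value table, and 0, 0 and 0 without the intensity trend. The prior degrees of freedom were 3.40, 3.45 and 1.19 in these fits, against 9.78. The counts were 210 and 125 lower under cyclic loess (40.5% higher, against 65.7%), 61 and 36 higher among genes above background on all 3 ciNPC arrays, 182 and 138 higher with the mean of all probes, 293, 221 and 72 over probes, 942, 387 and 555 with no minimum fold, and 426, 195 and 231 at 1.5-fold. The shared changes p13 against p5 (196; 96 higher, 100 lower) were 48 higher and 156 lower under quantile normalisation (23.5% higher, against 49.0%), 52 and 210 under cyclic loess (19.8%), 45 and 162 in the deposited value table (21.7%), 67, 35 and 32 under normexp, 84, 49 and 35 among genes above background on all 3 arrays, and 826, 401 and 425 at 1.5-fold. With either p13 array left out they ranged from 445 to 1078, 261 to 913 higher and 165 to 184 lower. Of the 196, 56 were shared the same way under the reported and all 5 other scalings, 27 higher and 29 lower. By difference between p13 arrays, genes 2-fold apart (608) were 334 under cyclic loess, 133 under normexp, 185 and 353 under the stricter filters and 1557 at 1.5-fold. Of the genes that passed, 3 changed sign, each with the mean of all probes: Pcsk5 to 0.31, Pycr1 to 0.24 and 2610037D02Rik to -0.81. The cause of these shifts was not tested. Dim genes set most limits: the floor of p13 replicate 2 was -2.79 against -3.52 at p5.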

Other observations

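Probes that carry no symbol of the gene table were tested in a separate fit of all probes. Of 13848 such probes, 128 passed higher at p13 (0.924%) and 31 lower (0.224%), and of 21745 probes with a symbol, 93 (0.428%) and 41 (0.189%) did. What these probes measure was not analysed here.

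Some members of other gene groups are given by value; with 0.611% of all genes passing, counts of 0 in lists of this size say little about them. Of 28 imprinted genes 25 were tested and 0 passed; Peg10, a retrotransposon-derived gene, measured -0.46 at p5 and 0.33 and 0.70 at p13, a difference of 0.97 with 0.83 on another probe (limma adjusted p = 0.0364, under 2-fold), and Dlk1 differed by -0.53. Of 23 genes of DNA methylation and Polycomb 0 passed, with Dnmt3a at 0.41 and Suz12 at -0.39. Of 18 histone genes 0 passed, and 12 of 16 bright members lay above 0, with H3c14 at 0.67. Mt2, a metallothionein that binds zinc and copper, fell by 1.05 ± 0.25 (SE; limma adjusted p = 0.0346), although replicate 1 measured 4.10 and replicate 2 measured 3.24 against 4.73 at p5. Tnnt1, a troponin of slow muscle, differed by 0.96 and Esrrb, an orphan nuclear receptor, by 1.00, both with a limma adjusted p under 0.05 (0.00938 and 0.00283) and just under 2-fold.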
